A study of Mus musculus with 9 samples.

Results

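Extracellular matrix proteases and their inhibitors were examined in uterine RNA-Seq of mice lacking *Wnk1* in the uterus. The genes were chosen by symbol from the deposited expression table: every matrix metalloproteinase (*Mmp*), every ADAMTS protease (*Adamts*), the tissue inhibitors of metalloproteinases (*Timp1* to *Timp4*) and *Adamdec1*. This gave 47 of the 31274 rows, with 23 *Mmp*, 19 *Adamts*, 4 *Timp* genes and *Adamdec1*. All mice were of strain C57BL/6 and, by the methods of the study, virgins of 6 to 10 weeks mated to vasectomized males, and the whole uterus was taken on pseudopregnancy day 4.5, the receptive phase. The 4 control mice were Wnk1f/f, with loxP sites on either side of exon 2 in both *Wnk1* alleles. The 5 Wnk1d/d mice carried the same floxed alleles and 1 copy of Cre driven by the progesterone receptor gene (PGRCre/+), so recombination is limited to cells in which this gene is or was active, and it also takes place in ovary and pituitary. Each mouse gave a library of its own.

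MMPs are zinc proteases that are made as inactive proenzymes and cleave collagens, laminins and other matrix proteins, either secreted or anchored in the cell membrane. ADAMTS proteases are secreted and carry thrombospondin repeats. Some cleave proteoglycans such as versican and aggrecan, and others remove the N-terminal propeptide of fibrillar procollagens. TIMPs bind the active site of MMPs and, for TIMP3, also of ADAMTS proteases. In the uterus these enzymes are known for the remodeling of stroma and vessels around implantation and after birth.

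Values are FPKM, sequenced fragments scaled to the exon length of the gene and to the size of the library, so levels of different genes may be set side by side. Fragment counts were not used, and absolute depth is unknown. Differences between genotypes were tested with limma on log2(FPKM + 1) over all 14728 genes with a mean above 1 FPKM in at least 1 genotype, with Benjamini-Hochberg adjustment over all of them. The log2 ratio given with its standard error (SE) is this fitted difference, Wnk1d/d minus Wnk1f/f, and it understates the change of low genes. "Rose" and "fell" are used for an adjusted p under 0.05, and a differentially expressed gene (DEG) also had mean FPKM at least 1.5 times apart.

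The protease genes split, and 0 of the 3 tested TIMP genes passed the test, where 22.1% of all genes tested did. With 3 genes, this count cannot be told from that share. The inhibitor genes *Reck* and *A2m*, outside this set, did pass and are given below. Of the 47 genes, 31 were above the FPKM filter and were tested, and 16 were too low. Of the 31 tested genes, 8 were DEGs (25.8%, beside 10.3% of all genes tested), 4 with higher FPKM in Wnk1d/d uteri (12.9%, beside 5.09%) and 4 with lower (12.9%, beside 5.18%). *Mmp17*, *Adamts3*, *Adamts2* and *Adamts1* were the higher DEGs, and *Adamdec1*, *Mmp11*, *Mmp28* and *Adamts10* the lower ones. *Mmp2* fell and *Mmp23* rose with a ratio under 1.5, which made 10 of 31 genes with an adjusted p under 0.05 (32.3%, beside 22.1%). The libraries of the genotypes did not overlap for 8 of the 31 (25.8%, beside 19.9%), with Wnk1d/d higher for 4 (12.9%, beside 9.27%) and lower for 4 (12.9%, beside 10.6%). The median log2 fold change of the 31 genes was 0.05, beside 0.00299 over all genes tested, with 16 values above and 15 below 0. *Mmp28* passed the filter through Wnk1f/f alone, and the other 30 tested genes had a mean above 1 FPKM in both genotypes.

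**Figure D1:**
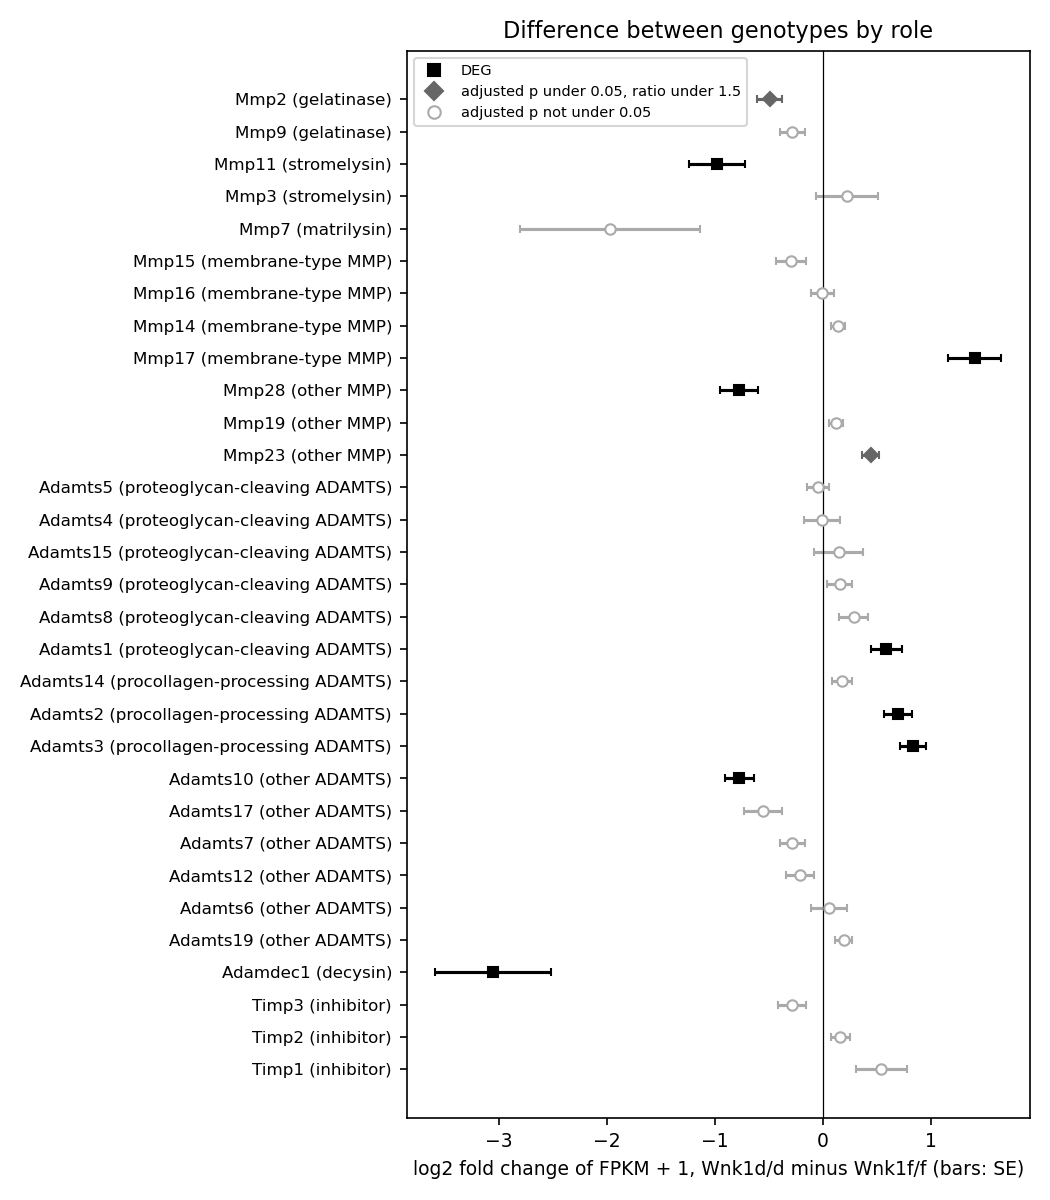
Log2 fold change of FPKM + 1 (Wnk1d/d minus Wnk1f/f) for the 31 tested genes, ordered by role, with standard errors from limma as bars. Filled squares are DEGs, filled diamonds passed the adjusted p with a ratio under 1.5, and open circles did not pass. *Adamdec1* lies lowest at -3.05 and *Mmp17* highest at 1.40, and the 3 tested TIMP genes are open circles.

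The targeted gene was lower in every Wnk1d/d library, with *Wnk1* at 43.4 to 47.3 FPKM in Wnk1f/f and 29.9 to 33.9 FPKM in Wnk1d/d uteri. The uterus was sequenced whole, and markers of its cell types differed between the genotypes. The summed FPKM of 5 smooth muscle markers (*Acta2*, *Myh11*, *Des*, *Cnn1* and *Actg2*, all DEGs) was 1708 to 3961 in Wnk1f/f and 4962 to 9090.2 in Wnk1d/d libraries. For 5 markers of blood endothelium (*Pecam1*, *Cdh5*, *Vwf*, *Kdr* and *Tie1*, 4 of them DEGs) it was 286 to 312 in Wnk1f/f and 109.6 to 238 in Wnk1d/d libraries. Leaving out 1 library at a time, *Myh11* lost an adjusted p under 0.05 in 5 of 9 fits, *Kdr* in 7 and *Pecam1* in 4. *Myh11* also overlapped between the genotypes. Epithelial markers (*Epcam*, *Krt8*, *Krt18*, *Cdh1* and *Foxa2*) summed to 561 to 794 and 545 to 785 FPKM, and 0 of 5 passed the test, with an unadjusted p under 0.05 for 1. Of 5 stromal markers, *Lum* and *Col1a1* rose while *Pdgfra* and *Hand2* fell. Wnk1f/f replicate 4 stood apart, with 119.8 FPKM over 5 liver markers where the other controls had 6.20 to 9.63 and Wnk1d/d libraries 8.03 to 26.0, and with the lowest smooth muscle sum. Without it, 6 of the 31 genes were DEGs, 3 higher and 3 lower, where 7.09% of all genes of that fit were. In tissue of mixed cells, fewer cells of a type and less RNA per cell cannot be told apart.

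The highest protease transcripts were those of *Mmp2* and *Mmp14*, which together made up 39.3% to 47.7% of the summed protease FPKM in Wnk1f/f and 42.8% to 45.1% in Wnk1d/d libraries. Below them the order differed between the genotypes. By mean FPKM *Adamdec1* (77.1), *Mmp23* (57.9) and *Mmp7* (52.6) followed in Wnk1f/f, and *Mmp23* (79.0), *Mmp17* (45.7) and *Adamts1* (38.9) in Wnk1d/d uteri, where *Adamdec1* had 7.56 FPKM. The control order depended on Wnk1f/f replicate 4. Without it, *Mmp23* (58.0), *Adamts10* (46.9), *Adamdec1* (43.7) and *Mmp7* (33.4) followed in Wnk1f/f, so *Mmp23* came first in both genotypes. The collagenases *Mmp1a*, *Mmp1b*, *Mmp8* and *Mmp13* were at or near 0 in every library.

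**Figure D2:**
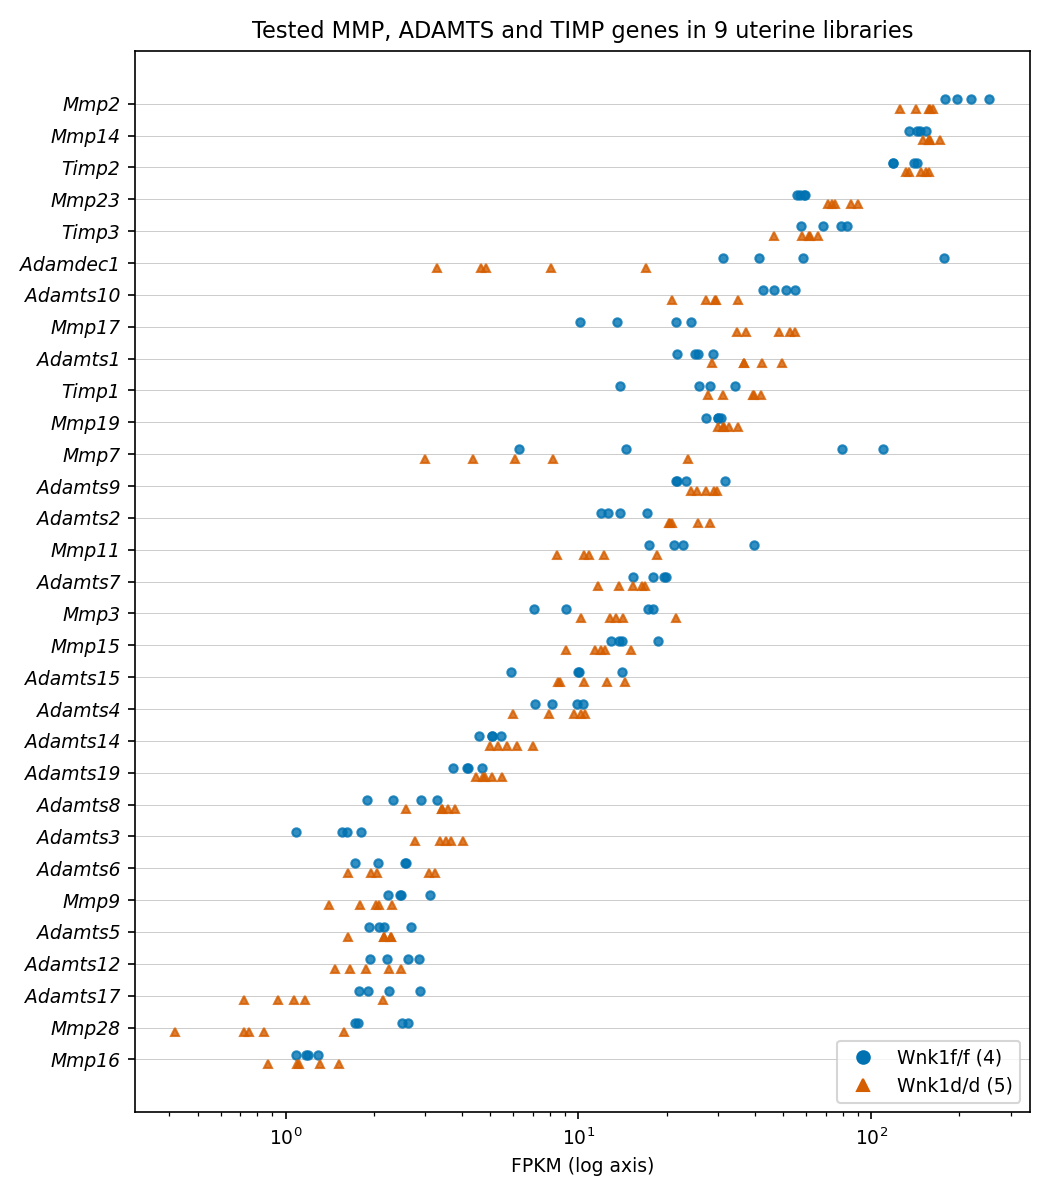
FPKM (log axis) of the 31 tested genes in 4 Wnk1f/f (circles) and 5 Wnk1d/d (triangles) libraries, 1 point per library, ordered by mean. Levels run from 0.420 FPKM for *Mmp28* in Wnk1d/d replicate 1 to 253 FPKM for *Mmp2* in Wnk1f/f replicate 4, and the points of the genotypes separate for *Mmp2*, *Mmp23*, *Mmp17*, *Adamts10*, *Adamts2*, *Adamts3*, *Adamdec1* and *Mmp28*.

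*Mmp2* (chromosome 8, 92827291 to 92853420 on mm10, as are all coordinates here) encodes gelatinase A, which cleaves denatured collagen and collagen IV of basement membranes. It had 219, 197, 179 and 253 FPKM in Wnk1f/f replicates 1 to 4 and 125, 163, 142, 157 and 159.5 FPKM in Wnk1d/d replicates 1 to 5. All Wnk1d/d libraries lay below all Wnk1f/f libraries, and *Mmp2* fell with a ratio of 0.706 (log2 ratio -0.49 ± 0.12 (SE), limma adjusted p = 0.0183). Without Wnk1f/f replicate 4, its highest library, it still fell (log2 ratio -0.41 ± 0.11 (SE), limma adjusted p = 0.0453). *Mmp9*, the other gelatinase, was low, with 2.57 ± 0.383 FPKM (SD, n = 4) in Wnk1f/f and 1.93 ± 0.343 FPKM (SD, n = 5) in Wnk1d/d uteri, overlapped between the genotypes and did not pass the test (limma adjusted p = 0.101).

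*Mmp14* (chromosome 14, 54431612 to 54445364) encodes MT1-MMP, the transmembrane protease that activates proMMP2 on the cell surface in a complex with TIMP2. It had 147, 143, 135 and 154 FPKM in Wnk1f/f replicates 1 to 4 and 150.2, 159, 157, 158 and 171 FPKM in Wnk1d/d replicates 1 to 5. These values varied little within each genotype and overlapped between them (log2 ratio 0.14 ± 0.06 (SE), limma adjusted p = 0.151), and with quantile normalization the sign of this small difference turned. The quotient of *Mmp2* to *Mmp14* FPKM was 1.495, 1.38, 1.32 and 1.64 in Wnk1f/f replicates 1 to 4 and 0.835, 1.03, 0.901, 0.996 and 0.931 in Wnk1d/d replicates 1 to 5. It lay above 1 in each control and between 0.835 and 1.03 in the Wnk1d/d libraries, without overlap. Against *Timp2*, the quotient of *Mmp2* was 1.62 ± 0.114 (SD, n = 4) in Wnk1f/f and 1.04 ± 0.163 (SD, n = 5) in Wnk1d/d libraries, also without overlap, and that of *Mmp14* was 1.12 ± 0.0675 (SD, n = 4) in Wnk1f/f and 1.102 ± 0.0864 (SD, n = 5) in Wnk1d/d libraries, with overlap. No test was made of these quotients.

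*Mmp17* (chromosome 5, 129584169 to 129611099) encodes MT4-MMP, held to the membrane by a glycosylphosphatidylinositol anchor, and had the highest log2 ratio of the 31 tested genes. It had 24.2, 13.5, 21.5 and 10.1 FPKM in Wnk1f/f replicates 1 to 4 and 37.3, 34.7, 48.4, 54.9 and 53.0 FPKM in Wnk1d/d replicates 1 to 5. Each Wnk1d/d library was above each control, and the mean was 2.64 times higher (log2 ratio 1.40 ± 0.25 (SE), limma adjusted p = 0.00699). Without Wnk1f/f replicate 4, the lowest, *Mmp17* remained a DEG (log2 ratio 1.19 ± 0.21 (SE), limma adjusted p = 0.0160). The transmembrane *Mmp15* had 14.9 ± 2.63 FPKM (SD, n = 4) in Wnk1f/f and 11.96 ± 2.17 FPKM (SD, n = 5) in Wnk1d/d uteri and did not pass (limma adjusted p = 0.156), nor did *Mmp16*, which was near the filter at 1.18 ± 0.0862 FPKM (SD, n = 4) in Wnk1f/f and 1.18 ± 0.246 FPKM (SD, n = 5) in Wnk1d/d uteri (limma adjusted p = 0.965). *Mmp24* and the anchored *Mmp25* were not tested, at 0.02 to 0.06 and 0.04 to 0.6 FPKM in Wnk1f/f and 0.06 to 0.12 and 0.04 to 0.14 FPKM in Wnk1d/d libraries.

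**Figure D3:**
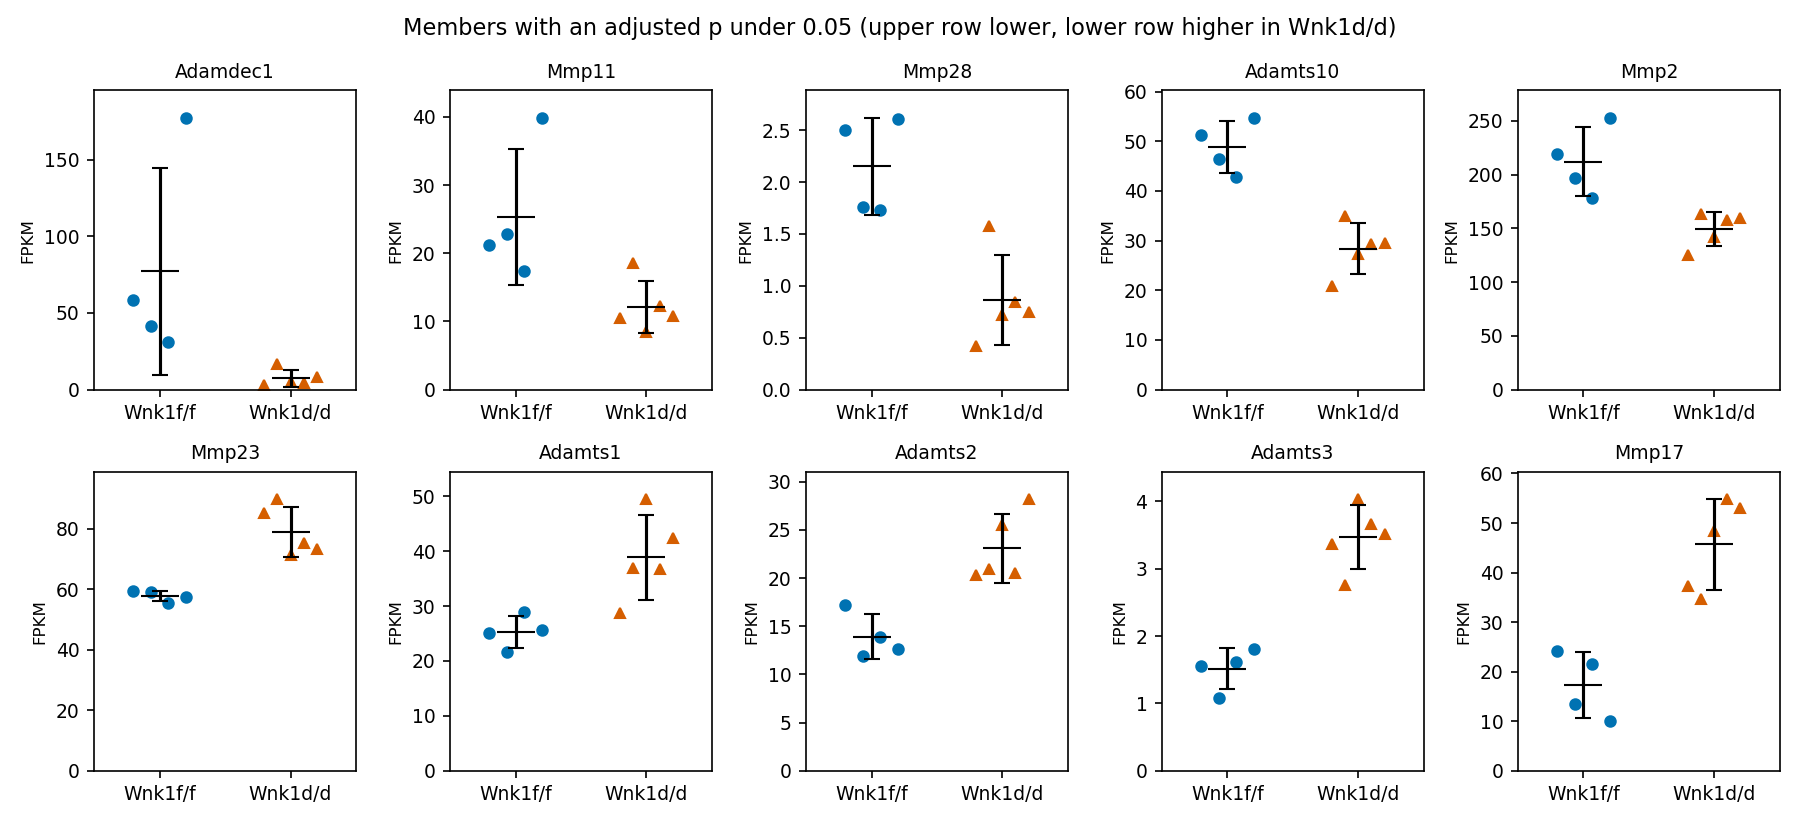
FPKM per library (points), mean (long bar) and SD (capped bar) of the 10 genes with an adjusted p under 0.05, on axes that start at 0. The upper row shows the 5 genes that fell and the lower row the 5 that rose. *Mmp11* and *Adamts1* overlap between the genotypes and the other 8 do not.

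A cluster of 10 *Mmp* genes lies within 427 kb of chromosome 9 (7272514 to 7699585), in the order *Mmp13*, *Mmp12*, *Mmp1b*, *Mmp3*, *Mmp1a*, *Mmp10*, *Mmp8*, *Mmp27*, *Mmp20* and *Mmp7*. It holds the collagenases, the stromelysins *Mmp3* and *Mmp10*, the metalloelastase *Mmp12*, the enamel protease *Mmp20* and matrilysin (*Mmp7*). Of the 10, *Mmp3* and *Mmp7* were above the filter, and 0 had an adjusted p under 0.05 in limma, with an unadjusted p under 0.05 for 1, *Mmp7*. The 100 bases before the RefSeq start (GRCm38.p6, 5′ to 3′) are shown for 5 of them that hold both of the motifs searched for, with TGANTCA, the letters of an AP-1 site, and TATAAA in capitals.
*Mmp3* (chr9:7445722-7445821, plus strand): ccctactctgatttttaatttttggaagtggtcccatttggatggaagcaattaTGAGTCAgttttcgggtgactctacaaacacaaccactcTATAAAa
*Mmp7* (chr9:7691990-7692089, plus strand): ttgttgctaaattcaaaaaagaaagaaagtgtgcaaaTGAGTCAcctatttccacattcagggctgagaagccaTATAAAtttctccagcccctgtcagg
*Mmp10* (chr9:7502242-7502341, plus strand): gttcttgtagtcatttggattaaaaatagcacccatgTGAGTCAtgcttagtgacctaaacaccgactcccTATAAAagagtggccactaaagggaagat
*Mmp13* (chr9:7272414-7272513, plus strand): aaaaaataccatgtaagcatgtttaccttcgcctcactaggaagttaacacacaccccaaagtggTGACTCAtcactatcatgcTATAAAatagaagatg
*Mmp1a* (chr9:7464041-7464140, plus strand): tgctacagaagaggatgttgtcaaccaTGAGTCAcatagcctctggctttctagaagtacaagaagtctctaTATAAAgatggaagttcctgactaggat

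In the 250 bases before the start, TGANTCA (which reads the same on both strands) was found for 8 of the 10 cluster genes, all but *Mmp8* and *Mmp27*, and TATAAA (searched on the strand of the gene) for 7, all of which also held TGANTCA. Of all 32851 RefSeq promoters of this length 6.75% held TGANTCA, 7.59% TATAAA and 0.791% both. RefSeq promoters matched 32 of the 47 genes, and of the 22 matched genes outside the cluster 0 held TGANTCA, among them 5 of the 8 DEGs. Both sets of letters stood before *Mmp3* and *Mmp7*, which were expressed, and before *Mmp13*, *Mmp10* and *Mmp1a*, which were near or at 0.

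*Mmp7* (chromosome 9, 7692090 to 7699585) encodes matrilysin, a small protease without a hemopexin domain that is typical of glandular epithelium. It had 79.3, 14.5, 6.29 and 110.2 FPKM in Wnk1f/f replicates 1 to 4 and 6.09, 23.6, 8.18, 4.38 and 3 FPKM in Wnk1d/d replicates 1 to 5. The controls themselves were far apart, with replicates 1 and 4 high, the genotypes overlapped, and the mean ratio of 0.172 did not pass the test (log2 ratio -1.97 ± 0.83 (SE), limma adjusted p = 0.113). Without Wnk1f/f replicate 3, the lowest control, the adjusted p was under 0.05 (log2 ratio -2.68, limma adjusted p = 0.0384), and without Wnk1f/f replicate 4 it was 0.274. Of its exon bases 11.5% are shared with the gene *AV064505* on the other strand, and whether counting kept the strands apart is not given in the sources used here. Stromelysin-1 (*Mmp3*), which cleaves proteoglycans, laminin and fibronectin, had 12.8 ± 5.58 FPKM (SD, n = 4) in Wnk1f/f and 14.5 ± 4.27 FPKM (SD, n = 5) in Wnk1d/d uteri and overlapped widely (limma adjusted p = 0.601). The other 8 cluster genes were not tested. *Mmp10* ranged from 0.23 to 0.41 FPKM in Wnk1f/f and 0.2 to 0.75 FPKM in Wnk1d/d libraries, and *Mmp27* from 0.1 to 0.54 and 0.23 to 0.55 FPKM. *Mmp8*, *Mmp12* and *Mmp13* did not exceed 0.11 FPKM in any library, and *Mmp1a*, *Mmp1b* and *Mmp20* were listed at 0 in all 9. Markers of neutrophils, in which MMP8 is stored, summed to 1.42 to 4.31 FPKM in Wnk1f/f and 2.15 to 6.52 FPKM in Wnk1d/d libraries.

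Stromelysin-3 (*Mmp11*, chromosome 10, 75923222 to 75936496) lies outside the cluster and is known as a stromal gene that is activated inside the cell by furin. It had 21.2, 22.9, 17.4 and 39.9 FPKM in Wnk1f/f replicates 1 to 4 and 10.4, 18.6, 8.46, 12.2 and 10.9 FPKM in Wnk1d/d replicates 1 to 5. Wnk1d/d replicate 2 reached the range of the controls, so the genotypes overlapped, and *Mmp11* fell to 0.479 of the control mean (log2 ratio -0.98 ± 0.26 (SE), limma adjusted p = 0.0258). Leaving out 1 library at a time, the adjusted p was 0.05 or more in 5 of 9 cases, among them without Wnk1f/f replicate 4 (log2 ratio -0.75 ± 0.21 (SE), limma adjusted p = 0.0535). *Chchd10*, on the other strand, overlaps 5.58% of the exon bases of *Mmp11* and rose (27.5 and 40.0 FPKM, limma adjusted p = 0.00829).

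Among the remaining MMPs, *Mmp23* (chromosome 4, 155650655 to 155653384), made as a membrane protein without a hemopexin domain, had 59.3, 59.1, 55.6 and 57.3 FPKM in Wnk1f/f replicates 1 to 4 and 85.3, 90.0, 71.2, 75.3 and 73.3 FPKM in Wnk1d/d replicates 1 to 5. The controls lay close together and every Wnk1d/d library was above them, and *Mmp23* rose with a ratio of 1.37, under the fold criterion (log2 ratio 0.44 ± 0.08 (SE), limma adjusted p = 0.00767). *Mmp28* (chromosome 11, 83440768 to 83463071), epilysin, known from keratinocytes and testis, had 2.50, 1.76, 1.73 and 2.61 FPKM in Wnk1f/f replicates 1 to 4 and 0.420, 1.58, 0.720, 0.840 and 0.750 FPKM in Wnk1d/d replicates 1 to 5. It fell without overlap, though Wnk1d/d replicate 2 came close to the lowest control (log2 ratio -0.77 ± 0.18 (SE), limma adjusted p = 0.0160). *Mmp28* shares 12% of its exon bases with *1700020L24Rik* on the other strand, which fell as well (4.02 and 1.91 FPKM, limma adjusted p = 0.0361). *Mmp19*, found in many tissues, had 29.5 ± 1.52 FPKM (SD, n = 4) in Wnk1f/f and 32.1 ± 1.98 FPKM (SD, n = 5) in Wnk1d/d uteri (limma adjusted p = 0.200), with 28.3% of its exon bases shared with other genes, and *Mmp21* did not exceed 0.02 FPKM.

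Of the 3 ADAMTS genes of procollagen processing, 2 rose, where 11.1% of all genes tested did. *Adamts2* (chromosome 11, 50602084 to 50807573), the main procollagen N-proteinase of skin, had 17.2, 11.95, 13.9 and 12.6 FPKM in Wnk1f/f replicates 1 to 4 and 20.3, 20.9, 25.6, 20.5 and 28.3 FPKM in Wnk1d/d replicates 1 to 5. Its lowest Wnk1d/d library was above its highest control, and it rose 1.66 times (log2 ratio 0.69 ± 0.13 (SE), limma adjusted p = 0.00839). *Adamts3* (chromosome 5, 89677087 to 89883334), which also processes the lymphatic growth factor VEGFC, had 1.56, 1.08, 1.62 and 1.81 FPKM in Wnk1f/f replicates 1 to 4 and 3.36, 2.76, 4.04, 3.67 and 3.52 FPKM in Wnk1d/d replicates 1 to 5. It rose 2.29 times without overlap (log2 ratio 0.83 ± 0.12 (SE), limma adjusted p = 0.00360), and it was a DEG in all 16 alternative fits in which it passed the filter. *Adamts14*, the third of this group, had 5.03 ± 0.361 FPKM (SD, n = 4) in Wnk1f/f and 5.83 ± 0.788 FPKM (SD, n = 5) in Wnk1d/d uteri and did not pass (limma adjusted p = 0.206). The fibrillar collagen gene *Col1a1*, a substrate of these enzymes, had 319 and 619 FPKM and rose (log2 ratio 0.96 ± 0.15 (SE), limma adjusted p = 0.00520). The stretches before the starts of *Adamts2* and *Adamts3* are shown beside those of the *Mmp* cluster, since they hold neither TGANTCA nor TATAAA and are richer in CG, with 13 and 11 CG pairs in 100 bases where the 5 *Mmp* stretches hold 0 or 1.
*Adamts2* (chr11:50601985-50602084, plus strand): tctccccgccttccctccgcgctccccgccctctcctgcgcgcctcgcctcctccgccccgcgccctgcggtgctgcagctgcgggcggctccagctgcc
*Adamts3* (chr5:89883335-89883434, minus strand): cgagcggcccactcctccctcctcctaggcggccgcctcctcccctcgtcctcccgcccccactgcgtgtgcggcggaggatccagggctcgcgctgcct

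Of 7 ADAMTS genes whose products cleave proteoglycans, 6 were tested and *Adamts1* was the only one to pass. *Adamts1* (chromosome 16, 85793827 to 85803113), a progesterone-responsive gene of the ovulating follicle, had 25.1, 21.7, 28.8 and 25.7 FPKM in Wnk1f/f replicates 1 to 4 and 28.6, 36.9, 49.6, 36.8 and 42.4 FPKM in Wnk1d/d replicates 1 to 5. Wnk1d/d replicate 1 lay just below the highest control, so the genotypes overlapped, and *Adamts1* rose 1.54 times (log2 ratio 0.58 ± 0.14 (SE), limma adjusted p = 0.0217). The adjusted p was 0.05 or more in 3 of 9 cases when 1 library was left out, namely Wnk1f/f replicate 2, Wnk1f/f replicate 4 or Wnk1d/d replicate 5 (limma adjusted p = 0.0546, 0.0512 and 0.0511). Without Wnk1d/d replicate 3, its highest library, *Adamts1* still passed (limma adjusted p = 0.0419). Its means were then less than 1.5 times apart, so it was not a DEG in that fit. Its neighbour on chromosome 16, the aggrecanase *Adamts5*, had 2.21 ± 0.326 FPKM (SD, n = 4) in Wnk1f/f and 2.11 ± 0.275 FPKM (SD, n = 5) in Wnk1d/d uteri (limma adjusted p = 0.771). *Adamts9*, the highest of the rest, had 24.6 ± 4.85 FPKM (SD, n = 4) in Wnk1f/f and 27.2 ± 2.39 FPKM (SD, n = 5) in Wnk1d/d uteri (limma adjusted p = 0.363), with 12% of its exon bases shared. The means were 8.86 FPKM in Wnk1f/f and 8.86 FPKM in Wnk1d/d uteri for *Adamts4*, and 10 FPKM in Wnk1f/f and 10.9 FPKM in Wnk1d/d uteri for *Adamts15* and 2.61 FPKM in Wnk1f/f and 3.36 FPKM in Wnk1d/d uteri for *Adamts8*, which are neighbours on chromosome 9 (limma adjusted p = 0.969, 0.668 and 0.150). *Adamts20* was not tested, with at most 0.12 FPKM.

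*Adamts10* (chromosome 17, 33524204 to 33553782), whose product binds fibrillin microfibrils, fell. It had 51.3, 46.5, 42.8 and 54.8 FPKM in Wnk1f/f replicates 1 to 4 and 20.9, 35.0, 27.3, 29.3 and 29.4 FPKM in Wnk1d/d replicates 1 to 5. The highest Wnk1d/d library was below the lowest control, at a mean ratio of 0.581 (log2 ratio -0.77 ± 0.13 (SE), limma adjusted p = 0.00674), and it stayed a DEG without Wnk1f/f replicate 4 (log2 ratio -0.72 ± 0.15 (SE), limma adjusted p = 0.0217). Its close relative *Adamts6* had 2.23 ± 0.413 FPKM (SD, n = 4) in Wnk1f/f and 2.39 ± 0.718 FPKM (SD, n = 5) in Wnk1d/d uteri (limma adjusted p = 0.835). *Adamts17*, another fibrillin-associated protease, had 1.91, 2.25, 1.78 and 2.87 FPKM in Wnk1f/f replicates 1 to 4 and 1.16, 2.15, 0.720, 0.940 and 1.07 FPKM in Wnk1d/d replicates 1 to 5. Wnk1d/d replicate 2 was inside the control range and *Adamts17* just missed the threshold (log2 ratio -0.56 ± 0.18 (SE), limma adjusted p = 0.0519), which it passed in 4 of 16 alternative fits, with an adjusted p of 0.00825 without Wnk1d/d replicate 2. *Adamts7* and *Adamts12*, which cleave cartilage oligomeric matrix protein, had means of 18.2 FPKM in Wnk1f/f and 14.8 FPKM in Wnk1d/d uteri and of 2.41 FPKM in Wnk1f/f and 1.95 FPKM in Wnk1d/d uteri. *Adamts19* had 4.19 FPKM in Wnk1f/f and 4.92 FPKM in Wnk1d/d uteri, and none of these 3 passed (limma adjusted p = 0.105, 0.248 and 0.116).

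The low ADAMTS genes *Adamts13* (the von Willebrand factor protease), *Adamts16* and *Adamts18* were under the filter in both genotypes. *Adamts13* ranged from 0.08 to 0.17 FPKM in Wnk1f/f and 0.01 to 0.06 FPKM in Wnk1d/d libraries, *Adamts16* from 0.13 to 0.29 and 0.02 to 0.09 FPKM, and *Adamts18* from 0.26 to 0.5 and 0.04 to 0.31 FPKM. Values of *Adamts13* and *Adamts16* did not overlap, and those of *Adamts18* overlapped through Wnk1d/d replicate 2. In the fit without a filter these 3 were DEGs with lower FPKM, where 7.75% of 21949 genes were DEGs and 4.19% lower ones (log2 fold change of FPKM + 1 -0.12, -0.16 and -0.33, limma adjusted p = 0.0225, 0.0268 and 0.0240). The other low genes of the set that entered this fit, among them *Adamts20* (limma adjusted p = 0.635), were not DEGs. At such levels a library holds few fragments of a gene.

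*Adamdec1* (chromosome 14, 68563380 to 68582095) lies between *Adam7* and *Adam28* on chromosome 14 and encodes decysin-1, a secreted ADAM-like protease with a changed zinc site, known from macrophages and intestinal stroma. It had 58.4, 41.5, 31.3 and 177 FPKM in Wnk1f/f replicates 1 to 4 and 3.28, 17.0, 4.85, 4.65 and 8.05 FPKM in Wnk1d/d replicates 1 to 5. Every Wnk1d/d library was below every control, and Wnk1f/f replicate 4 was 177 FPKM beside 31.3 to 58.4 FPKM in the other controls. *Adamdec1* fell to 0.0980 of the control mean (log2 ratio -3.05 ± 0.54 (SE), limma adjusted p = 0.00709). Without Wnk1f/f replicate 4 it fell as well (log2 ratio -2.54 ± 0.43 (SE), limma adjusted p = 0.0136), to a ratio of 0.173. The neighbouring *Adam28*, looked at after these values were seen, had 5.34 and 5.90 FPKM and did not pass (limma adjusted p = 0.610). Of 4 macrophage markers tested (*Csf1r*, *Cd68*, *Mrc1* and *Cd14*), *Cd14* rose and the others did not pass. The sum of all 4 was 74.1 to 97.2 FPKM in Wnk1f/f and 112 to 184 FPKM in Wnk1d/d libraries. *Cd14* made up much of this sum, with means of 50.02 FPKM in Wnk1f/f and 101.94 FPKM in Wnk1d/d uteri. *Csf1r*, *Cd68* and *Mrc1* overlapped between the genotypes (log2 ratio -0.24, 0.36 and 0.48). The sum thus does not show that macrophage markers as a group were higher in Wnk1d/d uteri.

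None of the 3 tested TIMPs passed the test, where 22.1% of all genes tested did. *Timp2* (chromosome 11, 118301069 to 118355740), the highest, had 139.8, 119, 119 and 143 FPKM in Wnk1f/f replicates 1 to 4 and 148, 135, 154, 131 and 157 FPKM in Wnk1d/d replicates 1 to 5. Its values overlapped, with means higher in Wnk1d/d uteri (log2 ratio 0.16 ± 0.09 (SE), limma adjusted p = 0.216). *Timp3* (chromosome 10, 86300372 to 86349506), which binds to matrix and also inhibits ADAMTS proteases, had 79.0, 68.3, 57.8 and 83.0 FPKM in Wnk1f/f replicates 1 to 4 and 46.4, 62.0, 65.8, 61.3 and 58.2 FPKM in Wnk1d/d replicates 1 to 5. It overlapped, with a lower mean in Wnk1d/d uteri (log2 ratio -0.29 ± 0.13 (SE), limma adjusted p = 0.131), and 21.3% of its exon bases are shared with *Syn3*, in which it lies. *Timp1* (chromosome X, 20870166 to 20874735) had 25.8, 28.2, 34.4 and 13.8 FPKM in Wnk1f/f replicates 1 to 4 and 31.2, 27.8, 39.9, 42.2 and 39.5 FPKM in Wnk1d/d replicates 1 to 5. Wnk1f/f replicate 4 was the lowest library, and the difference was smaller without it: all 9 libraries gave a log2 ratio of 0.54 ± 0.24 (SE), limma adjusted p = 0.125, and the other 8 a log2 ratio of 0.28 ± 0.15 (SE), limma adjusted p = 0.251. *Timp4* was not tested, with 0.12, 0.26, 0.07 and 0.15 FPKM in Wnk1f/f replicates 1 to 4 and 0.24, 0.17, 0.15, 0.04 and 0.22 FPKM in Wnk1d/d replicates 1 to 5. No TIMP passed an adjusted p of 0.05 in any of the alternative fits. In the fit of all 9 libraries, an unadjusted limma p under 0.05 was reached by 1, *Timp1*.

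Proteases were then set against inhibitors by summing the FPKM of the 43 protease genes and of the 4 *Timp* genes in each library, as a description without a test. Summed protease FPKM was 859, 711, 689 and 1035 in Wnk1f/f replicates 1 to 4 and 629.6, 752, 699.6, 699 and 735 in Wnk1d/d replicates 1 to 5. The controls were spread widely, with replicate 4 highest, and overlapped the Wnk1d/d libraries. Summed inhibitor FPKM was 245, 216, 211 and 239.9 in Wnk1f/f replicates 1 to 4 and 226, 225, 259, 235 and 255 in Wnk1d/d replicates 1 to 5. These overlapped in part, with 2 controls below all Wnk1d/d libraries and 2 Wnk1d/d libraries above all controls. The quotient of the sums was 3.60 ± 0.490 (SD, n = 4) in Wnk1f/f and 2.94 ± 0.252 (SD, n = 5) in Wnk1d/d libraries, and 3.36 ± 0.133 (SD, n = 3) in Wnk1f/f without replicate 4. Wnk1d/d replicate 2, at 3.35, lay among the controls and the other 4 Wnk1d/d libraries below them. Much of the difference in the protease sum lay in *Adamdec1* and *Mmp7*, a choice made after their values were seen. Without these genes the sum was 694 ± 48.1 (SD, n = 4) in Wnk1f/f and 687 ± 40.2 (SD, n = 5) in Wnk1d/d libraries and the quotient 3.05 ± 0.0738 (SD, n = 4) in Wnk1f/f and 2.87 ± 0.200 (SD, n = 5) in Wnk1d/d libraries. The share of *Mmp2* in the protease sum was 24.4% to 27.6% in Wnk1f/f and 19.9% to 22.5% in Wnk1d/d libraries, without overlap. Summed *Adamts* FPKM was 173 ± 8.48 (SD, n = 4) in Wnk1f/f and 178 ± 20.5 (SD, n = 5) in Wnk1d/d libraries, with overlap.

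**Figure D4:**
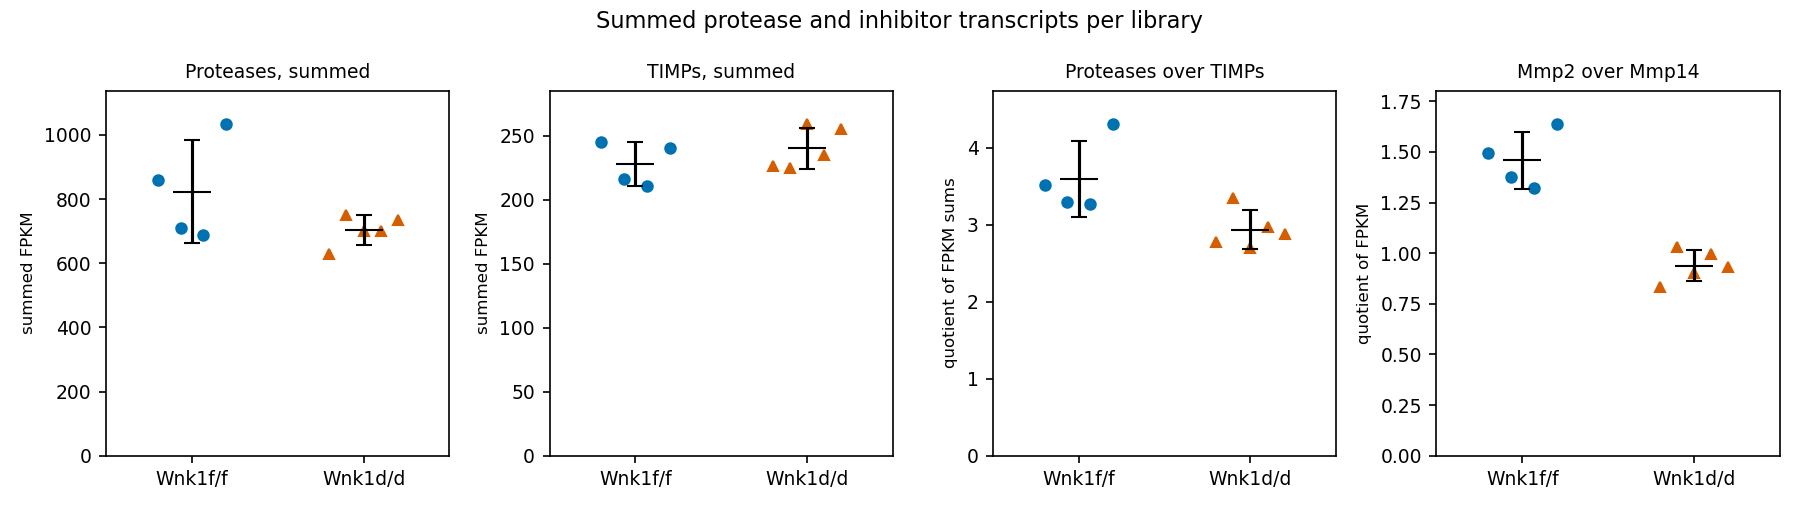
Summed FPKM of 43 protease genes, summed FPKM of 4 *Timp* genes, the quotient of these sums, and the quotient of *Mmp2* to *Mmp14* FPKM, with 1 point per library, the mean (long bar) and SD (capped bar), on axes that start at 0. The first 3 measures overlap between the genotypes, and the quotient of *Mmp2* to *Mmp14* is 1.32 to 1.64 in Wnk1f/f and 0.835 to 1.03 in Wnk1d/d libraries.

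The genes past the test were set beside the cell type markers given above. *Mmp17* followed the smooth muscle markers also within each genotype, where its libraries stood in the same order as the marker sum (3961, 2557, 3399.7 and 1708 FPKM in Wnk1f/f replicates 1 to 4 and 6225, 4962, 7551, 9090.2 and 8818 FPKM in Wnk1d/d replicates 1 to 5). Per 1000 FPKM of these markers, *Mmp17* was 5.29 to 6.32 in Wnk1f/f and 6.00 to 6.99 in Wnk1d/d libraries, which overlapped. For the 5 genes that rose (*Mmp17*, *Mmp23*, *Adamts1*, *Adamts2* and *Adamts3*), the level per smooth muscle marker sum overlapped between the genotypes for 5 of 5, and the level per endothelial marker sum for 0 of 5. Per smooth muscle sum, *Adamts2* and *Mmp23* overlapped through Wnk1d/d replicate 2 alone, and their other Wnk1d/d libraries lay below all controls. *Adamts1* lay below all controls in Wnk1d/d replicates 1, 4 and 5, while *Adamts3* was within the control range in every Wnk1d/d library. The count thus does not show that all 5 genes followed the smooth muscle markers. The overlap between the genotypes was also 5 of 5 per sum of the macrophage, neutrophil, natural killer cell or liver markers, 3 of 5 per stromal and 2 of 5 per epithelial sum. Neutrophil, natural killer cell and liver sums varied widely among the controls (1.42 to 4.31, 36.9 to 94.8 and 6.20 to 119.8 FPKM). An overlap per these sums is thus easily reached, and such counts cannot tell whether an overlap is particular to another cell type. *Adamts10* was 142 to 180.3 in Wnk1f/f and 147 to 191 in Wnk1d/d libraries per 1000 FPKM of the endothelial markers (286, 312, 302 and 304 FPKM in Wnk1f/f replicates 1 to 4 and 109.6, 238, 148, 193 and 189.7 FPKM in Wnk1d/d replicates 1 to 5). Within Wnk1f/f, *Adamts10* did not follow the order of these sums, with 51.3, 46.5, 42.8 and 54.8 FPKM in replicates 1 to 4. For the 5 genes that fell, the level per endothelial marker sum overlapped for 4 (*Adamts10*, *Mmp2*, *Mmp11* and *Mmp28*). It did not for *Adamdec1*, at 104 to 584 in Wnk1f/f and 24.1 to 71.3 in Wnk1d/d libraries. The same 4 overlapped per neutrophil, natural killer cell or liver marker sum, 1 of 5 (*Mmp2*) per epithelial sum and 0 of 5 per macrophage, stromal or smooth muscle sum. Dividing by a sum that itself differs in the same direction draws the groups together for any gene, the pairs of genes and markers were chosen after their values were seen, and the part of cell composition in these differences was not tested.

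**Figure D5:**
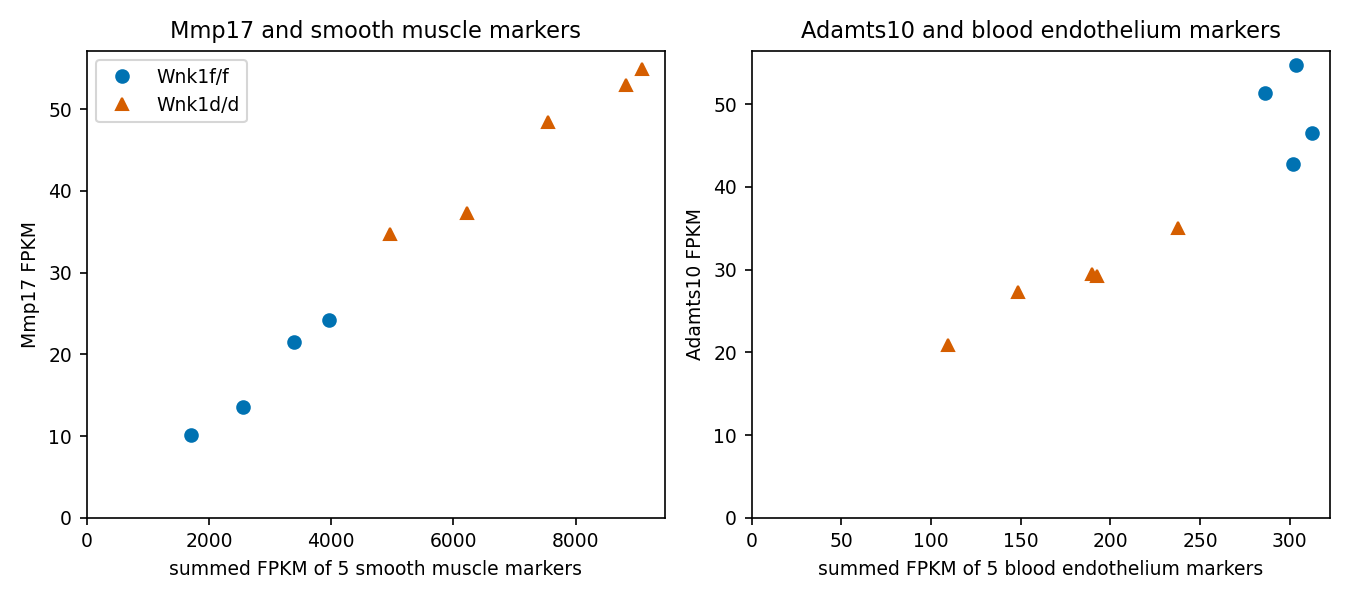
Left, *Mmp17* FPKM against the summed FPKM of 5 smooth muscle markers, and right, *Adamts10* FPKM against the summed FPKM of 5 blood endothelial markers, in 4 Wnk1f/f (circles) and 5 Wnk1d/d (triangles) libraries, with axes from 0. *Mmp17* rises with the marker sum in both genotypes, from 10.1 to 54.9 FPKM, and *Adamts10* is 20.9 to 35.0 FPKM in the Wnk1d/d libraries with the lower endothelial sums. Within Wnk1f/f, *Adamts10* does not follow the order of the endothelial sums.

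Genes that act beside these proteases were looked at as lists, whose counts stand beside 10.3% DEGs and 22.1% with an adjusted p under 0.05 over all genes tested. Of 6 tested genes of the plasmin system, which activates several proMMPs, the urokinase gene *Plau* was a DEG, with 11.6, 7.92, 8.54 and 11.02 FPKM in Wnk1f/f replicates 1 to 4 and 15.9, 12.1, 20.3, 17.6 and 19.0 FPKM in Wnk1d/d replicates 1 to 5 (log2 ratio 0.74 ± 0.16 (SE), limma adjusted p = 0.0131), and 1 other gene passed with a ratio under 1.5. Of 10 other protease inhibitors and processing enzymes 5 were DEGs, 2 higher and 3 lower. *Reck*, a membrane-anchored inhibitor of MMP2, MMP9 and MMP14, had 19.1, 17.6, 18.4 and 18.4 FPKM in Wnk1f/f replicates 1 to 4 and 7.53, 12.4, 7.55, 10.3 and 9.57 FPKM in Wnk1d/d replicates 1 to 5, and its genotypes lay well apart (log2 ratio -0.91 ± 0.13 (SE), limma adjusted p = 0.00366). *A2m*, the gene of the broad protease trap alpha-2-macroglobulin, rose from 1.13 to 19.7 FPKM (log2 ratio 3.28 ± 0.21 (SE), limma adjusted p = 0.000201). Among the proprotein convertases, which cleave the propeptides of membrane-type MMPs and ADAMTS proteases, *Pcsk6* rose from 14.6 to 24.4 FPKM (limma adjusted p = 0.0291). *Pcsk5* fell from 54.95 to 34.5 FPKM (limma adjusted p = 0.0201). *Furin* had 29.3 FPKM in Wnk1f/f and 29.7 FPKM in Wnk1d/d uteri and did not pass (limma adjusted p = 0.865). *Pcsk6* overlapped between the genotypes and lost an adjusted p under 0.05 in 5 of 9 fits without 1 library, and *Pcsk5* in 1. The serine protease inhibitor gene *Serpina3n* fell from 92.2 to 54.9 FPKM (limma adjusted p = 0.00965), and the other 5 of the 10, *Furin* among them, did not pass.

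Of 9 ADAM proteases, relatives of the ADAMTS family with a membrane anchor, *Adam12* and *Adam33* were DEGs that rose from 4.41 to 8.97 FPKM and from 12.9 to 25.3 FPKM (limma adjusted p = 0.00684 and 0.0266), 1 other passed with a ratio under 1.5, and 6 did not pass. *Adam33* overlapped between the genotypes and lost its call in 6 of 9 fits without 1 library. Of 6 tested ADAMTS-like genes, which share the ancillary domains but lack the protease, *Thsd4* and *Papln* were DEGs that rose from 2.34 to 4.40 FPKM and from 2.29 to 4.12 FPKM (limma adjusted p = 0.00661 and 0.0320). *Papln* overlapped and lost its call in 5 of those 9 fits. Of 4 tested genes of the astacin group and its enhancers, which cut the C-terminal propeptide of procollagens or aid this, 0 passed in limma, with an unadjusted p under 0.05 for 1. Of 8 cathepsins, lysosomal proteases, *Ctsb* was a DEG that rose from 554 to 943 FPKM (limma adjusted p = 0.00550), and 2 others passed with a ratio under 1.5.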

How the data were processed

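Uterine RNA of 9 mice was sequenced as paired reads of 75 nt. The authors kept reads with an average quality above 20, aligned them to mm10 with TopHat2 2.0.4 and deposited FPKM per gene, for which the submitters' processing notes name Cufflinks 2.0.2. The annotation is not given in the sources used here. FPKM keep no fragment counts, so depth per library is unknown and no counting interval is given.

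From the deposited FPKM, log2(FPKM + 1) was fitted with limma 3.58.1 in R 4.3.3 (mean-variance trend, genotype only) over 14728 genes with a mean above 1 FPKM in at least 1 genotype. P-values were adjusted over all of them. With 1 library per mouse, they set the difference between genotypes against the variation between mice, which limma moderates across genes. The fit was tested on simulated data: of 200 genes changed 4-fold among 14728, 99% were called, and 3.41% of the calls were unchanged genes. Low genes were left out of the changed set, and smaller changes, such as those of most genes here, were not simulated. Same-numbered libraries come from different mice and were not paired. Positions and shared exon bases are from GENCODE M21.

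The genes and lists were chosen with earlier results of these data known. Every matrix protease and inhibitor was named. DEGs, *Timp* genes and the 5 highest proteases got the value in every library, and *Mmp7*, *Adamts17*, *Plau* and *Reck* were added after their values were seen. Alternatives were another pseudocount, filter, scaling, variance model, fold criterion, a replicate block and leaving out each library.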

Additional observations from a re-analysis of the deposited data

Results flagged for a closer look

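In 3 of 68 groups of values (the tested genes and the summed levels, per genotype), 1 library stood apart from the others of its genotype by Dixon's criterion, which chance meets in about 1 in 20 groups. *Mmp7* in Wnk1d/d replicate 2 had 23.6 FPKM, where the nearest library of that genotype had 8.18 FPKM. *Adamts9* in Wnk1f/f replicate 1 had 31.8 FPKM, with the nearest control at 23.3 FPKM. *Adamts5* in Wnk1d/d replicate 4 had 1.63 FPKM, with the nearest at 2.17 FPKM. None of these genes passed the limma test with all libraries.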

How the results depend on the processing

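With a ratio of at least 2, DEGs were 550 of all genes in place of 1513 and 5 among the matrix protease and inhibitor genes in place of 8, with 2 higher. Without a fold criterion 3249 of all genes passed, and without a filter 7 of these genes were lower DEGs in place of 4. The replicate block, in which Wnk1d/d replicate 5 has no partner, left 218 DEGs among all genes and 1 among the matrix protease and inhibitor genes (*Adamts3*), so 1 higher and 0 lower, where 9 of the 10 genes lost an adjusted p under 0.05 (0.063 to 0.107). Same-numbered libraries did not vary together (correlations -0.0867, -0.0029, 0.0221 and -0.2676), and no control correlated best with its own number. Leaving out 1 library gave 1019 to 1869 DEGs in all, 6 to 9 among these genes, 3 to 4 higher and 3 to 5 lower. The difference (Wnk1d/d minus Wnk1f/f) was -165 to -50.0 FPKM for summed proteases, 6.59 to 17.9 FPKM for inhibitors and -0.77 to -0.42 for their quotient, and quantile normalization turned that of inhibitors to -7.12 FPKM from 12.2. Without the highest protease and the highest inhibitor the differences were -58.2 FPKM in place of -121, -2.71 FPKM for inhibitors and -0.37 in place of -0.66 for the quotient.

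Of 517 fitted values 474 kept direction and side of the threshold, and 21 turned sign, in genes that did not pass either way. With quantile normalization the log2 fold change was 0.018 for *Adamts4*, -0.0087 for *Mmp14* and 0.013 for *Mmp16*, with library weights 0.12 for *Adamts4*, and with the replicate block -0.033 for *Adamts6* and 0.0053 for *Mmp16*. Leaving out 1 library gave -0.065 to 0.31 for *Adamts15*, -0.10 to 0.11 for *Adamts4*, -0.089 to 0.021 for *Adamts5*, -0.033 to 0.14 for *Adamts6*, -0.062 to 0.045 for *Mmp16* and -0.010 to 0.40 for *Mmp3*. The cause was not tested. Depth is unknown, so the precision of genes under 1 FPKM cannot be given.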
